A study of Mus musculus with 30 samples.

Results

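RNA from perisynaptic diaphragm, the strip of the breathing muscle that holds its neuromuscular junctions, was compared between SBMA and control male mice at 26 weeks of age. The comparison used 8 of the 30 RNA-seq libraries of the study, 4 from SBMA and 4 from control animals, picked by their labelled genotype, region and age. Each library came from a separate animal. SBMA animals carried BACfxAR121, a transgene with a human androgen receptor gene whose CAG repeat is expanded. Controls, from the same litters, carried BACfxAR121 and in addition HSA-Cre, a recombinase driven by a skeletal actin promoter, described by the submitters as a rescue of muscle. That promoter drives Cre in skeletal muscle and not in motor neurons, and presence of Cre cannot be told apart from loss of the transgene in muscle fibres. The other 22 libraries covered 15 weeks of age and extrasynaptic pieces without junctions, and are used only to set these 8 in context.

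Spinal and bulbar muscular atrophy is an inherited disease in which a lengthened glutamine tract in the androgen receptor harms motor neurons and muscle of males. Muscle nuclei under the nerve ending transcribe the acetylcholine receptor and its anchoring proteins, while nuclei elsewhere in a fibre keep these genes low as long as the nerve is active. Adult limb and trunk fibres make slow or fast isoforms of each sarcomere protein, and the fast myosin heavy chain genes lie next to each other on a single chromosome with the embryonic and perinatal ones. Loss of nerve input in mice is known to raise receptor subunits outside the junction, perinatal myosin and cell-adhesion genes.

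The 250 bases before the RefSeq start of 5 genes are printed because the results turn on them: 2310065F04Rik, Myh4 and Myh8, which lie in the myosin cluster and moved in opposite directions, and the receptor subunit genes Chrna1 and Chrnb1, which rose. Build GRCm38.p6 and RefSeq give chr11:67120081-67120330 on the minus strand for 2310065F04Rik, chr11:67237562-67237811 on the plus strand for Myh4, and chr11:67276874-67277123 on the plus strand for Myh8. They give chr2:73580339-73580588 for Chrna1 and chr11:69795938-69796187 for Chrnb1, both on the minus strand. Capitals mark each CANNTG, the E-box core that myogenic transcription factors recognise, and the letters read 5′ to 3′ on the gene's strand.
2310065F04Rik: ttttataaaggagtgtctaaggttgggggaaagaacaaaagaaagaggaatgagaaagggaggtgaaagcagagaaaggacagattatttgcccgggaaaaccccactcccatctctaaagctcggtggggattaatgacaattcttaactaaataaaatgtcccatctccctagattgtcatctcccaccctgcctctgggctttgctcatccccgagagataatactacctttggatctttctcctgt
Myh4: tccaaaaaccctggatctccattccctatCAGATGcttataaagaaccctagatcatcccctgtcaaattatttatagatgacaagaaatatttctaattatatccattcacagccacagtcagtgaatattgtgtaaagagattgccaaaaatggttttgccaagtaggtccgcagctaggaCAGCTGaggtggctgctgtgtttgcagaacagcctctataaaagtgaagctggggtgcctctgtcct
Myh8: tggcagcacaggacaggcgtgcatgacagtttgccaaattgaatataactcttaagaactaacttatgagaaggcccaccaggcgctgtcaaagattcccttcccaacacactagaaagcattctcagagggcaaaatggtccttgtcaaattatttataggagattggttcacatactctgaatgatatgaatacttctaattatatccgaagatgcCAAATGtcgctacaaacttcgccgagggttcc
Chrna1: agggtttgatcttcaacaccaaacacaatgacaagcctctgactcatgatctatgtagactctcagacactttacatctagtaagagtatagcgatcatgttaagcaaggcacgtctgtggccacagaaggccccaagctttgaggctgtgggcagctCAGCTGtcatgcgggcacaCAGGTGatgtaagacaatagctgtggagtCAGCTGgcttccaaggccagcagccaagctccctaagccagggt
Chrnb1: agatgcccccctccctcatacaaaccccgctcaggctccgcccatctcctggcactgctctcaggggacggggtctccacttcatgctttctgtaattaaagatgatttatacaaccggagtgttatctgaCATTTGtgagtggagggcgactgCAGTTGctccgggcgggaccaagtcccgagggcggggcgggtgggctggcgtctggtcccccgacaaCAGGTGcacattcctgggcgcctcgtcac

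CANNTG, which reads the same in form on both strands, occurred 0 times before 2310065F04Rik, 2 times before Myh4, 1 time before Myh8 and 3 times before each receptor gene. It was found in 66.22% of 32817 windows of this length, with a median of 1 match. The narrower form CAGCTG, itself a CANNTG, was found 2 times before Chrna1 and 1 time before Myh4, against 13.01% of all windows with a match. CCGGAA, the N-box core bound by ETS factors at synaptic genes, had no match in the 5 windows on either strand and was found in 12.02% of all windows. TGTTCT, one arm of the androgen response element, matched 1 time before 2310065F04Rik and 1 time before Myh4, on either strand, against 16.08% of all windows. A match describes these letters and is not evidence of a bound site.

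Total counts of the 8 libraries ranged from 19146014 to 28037826, and 15735 genes passed the filter on low counts over the 15 perisynaptic libraries. Levels are CPM, the counts of a gene over TMM-scaled library sizes. Differences were tested by edgeR quasi-likelihood, and adjusted p-values are Benjamini-Hochberg over all genes tested. A gene was called where the adjusted p was under 0.05, log2 fold changes are SBMA minus control with their SE, and n = 4 animals in each group at 26 weeks. The TMM factors were 1.052 to 1.177 in SBMA and 0.8725 to 1.012 in control libraries, without overlap (exact permutation test, 2-sided, p = 0.02857, the smallest that 70 splits allow). The 10 most abundant genes took 13.49, 13.8, 16.46 and 15.93% of counts in SBMA libraries, against 19.21, 17.44, 21.86 and 19.9% in control libraries. With total-count scaling in place of TMM the median of all genes lay at 0.24 and not at -0.02, and changes below are relative to the median gene.

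Control replicate 2 stood apart. By Dixon's rule it lay apart from the other control libraries at 1094 genes, 6.954% of those examined, against 0.4831 to 1.093% for the other 7 libraries. Its short transcripts were high and its long ones low. Among genes above 5 CPM, its median deviation from the mean of the other control libraries was taken on the log2 scale. It was 0.249 for the 3417 genes with the shortest exon length and -0.374 for the 3418 with the longest. The animals fall into runs of consecutive library numbers, replicates 1 and 2 in the first and 3 and 4 in the second. Among SBMA libraries the same length pattern separated the runs at smaller size. Control replicate 1, of the first run, did not show it, with median deviations of 0.008 for the shortest and 0.012 for the longest genes. In SBMA replicates 1 to 4 the longest genes deviated from the mean of the other SBMA libraries by medians of -0.147, -0.104, 0.138 and 0.124. Medians of the fold change over the shortest, middle and longest genes were -0.054, 0.031 and 0.055 with control replicate 2 and 0.012, 0.001 and -0.023 without it. No gene named below as called lost its call without control replicate 2.

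Of 15735 genes 2204 were called, which is 14%, with 1265 higher (8.04%) and 939 lower (5.97%) in SBMA. Counts called in the gene lists below, with TMM scaling, are to be read beside these shares. More than 2 log2 units separated the groups at 75 called genes that were higher and 57 that were lower. SBMA and control libraries did not overlap at 2937 genes, or 18.7%, and 1136 of the higher and 805 of the lower calls were among them. With total-count scaling 4259 genes were called higher and 383 lower. The count was 2706 without control replicate 2 and between 1602 and 2052 without each of the other 7 libraries, and 1250 genes, 774 higher and 476 lower, were called whichever library was left out. Within the run of replicates 1 and 2 the count was 1381, and within the run of replicates 3 and 4 it was 990. With the run as a block it was 3222, with 1794 higher and 1428 lower, and all 2204 were among them.

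**Figure D1:**
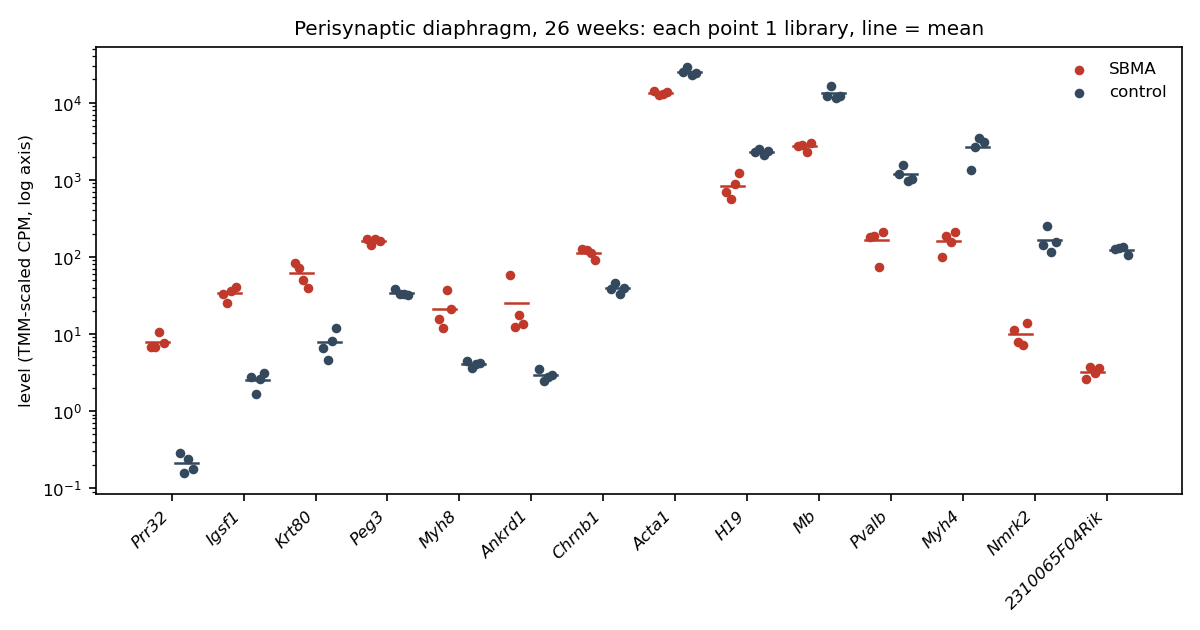
Level of 14 genes in each perisynaptic library at 26 weeks, as TMM-scaled CPM on a log axis, with SBMA libraries left of control libraries for each gene, a point for each library and a line at the group mean. The 14 genes were picked from called genes, so that their SBMA and control libraries do not overlap follows largely from the choice. Groups did not overlap at 18.7% of all genes. 2310065F04Rik lies at 2.601 to 3.73 CPM in SBMA and 106 to 132 CPM in control libraries.

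The cluster of skeletal myosin heavy chain genes on chromosome 11 gave both the deepest fall of the comparison and a clear rise. The gene with the lowest fold change among those above 2 CPM was 2310065F04Rik (ENSMUSG00000087410.7, chromosome 11, 67112461 to 67120080, GRCm38, minus strand), a long intergenic non-coding RNA between Myh3 and Myh2. It measured 2.601, 3.73, 3.07 and 3.603 CPM in SBMA libraries, against 128, 132, 132 and 106 CPM in control libraries. The groups lay far apart with little spread within either, at -5.26 ± 0.31 on the log2 scale (adjusted p = 1.04e-07). At 15 weeks it was already lower, at 30.4, 44.6, 12.9 and 26.6 CPM in SBMA and 107, 149 and 133 CPM in control libraries (-2.18 ± 0.27, adjusted p = 0.00588).

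Myh4 (ENSMUSG00000057003.12, chromosome 11, 67238029 to 67260446), which encodes the heavy chain of the fastest fibres, measured 99.1, 184, 156 and 209 CPM in SBMA libraries, against 1338, 2629, 3455 and 3112 CPM in control libraries. Even the highest SBMA library was several times under the lowest control library (-4.02 ± 0.35, adjusted p = 3.33e-06). Myh2, the heavy chain of fast oxidative fibres, fell by less (-1.60 ± 0.20, adjusted p = 7.04e-05), and so did Myh1, that of intermediate fast fibres (-1.07 ± 0.18, adjusted p = 0.00107). Myh7, the slow heavy chain gene on chromosome 14, also fell (-0.88 ± 0.19, adjusted p = 0.00532). Perinatal Myh8 (ENSMUSG00000055775.16, chromosome 11, 67277124 to 67308634) went the other way, with 15.5, 11.9, 36.95 and 20.98 CPM in SBMA libraries and 4.46, 3.62, 4.06 and 4.16 CPM in control libraries, without overlap (2.39 ± 0.27, adjusted p = 3.49e-05). Embryonic Myh3, at the other end of the cluster, measured 4.98, 4.04, 3.15 and 2.63 CPM in SBMA and 2.89, 0.775, 4.38 and 5.06 CPM in control libraries, which overlapped (0.16 ± 0.35, adjusted p = 0.802), and its sign depended on single libraries. Of 10 myosin heavy chain genes tested 2 rose and 4 fell, against 8.04% and 5.97% of all genes.

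2 annotated antisense transcripts of the cluster fell as well. Myhas, which overlaps Myh1 on the other strand, measured 18.4, 16.97, 12.7 and 13.04 CPM in SBMA and 29.1, 83.2, 26.2 and 27.2 CPM in control libraries (-1.44 ± 0.30, adjusted p = 0.00495). Control replicate 2 stood far above the others there, and without it the fold change was -0.85, still called. The other, 9430073C21Rik, which overlaps the end of Myh2 on the other strand, stood at -1.42 ± 0.29 (adjusted p = 0.00386), and at -0.93 without control replicate 2. The strand setting of the authors' counting is not given in the sources used here, so reads of these transcripts and of the myosin genes they overlap cannot be told apart.

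Divided by exon length and summed over 6 heavy chains (Myh1, Myh2, Myh3, Myh4, Myh7 and Myh8), the myosin level was 1756, 1938, 2600 and 2539 CPM per kilobase in SBMA libraries, against 4691, 3909, 6502 and 6393 CPM per kilobase in control libraries. Within that sum Myh1 held 74.87, 75.33, 76.98 and 72.14% in SBMA libraries, against 68.25, 61.83, 66.42 and 61.28% in control libraries, so its share was higher in SBMA although its level was lower. The share of Myh4 was 0.9382 to 1.582% in SBMA and 4.741 to 11.18% in control libraries. The shares of Myh2 and Myh7 overlapped between the groups. Myh8 stayed a trace in both, at 0.05209 to 0.1207% in SBMA and 0.005308 to 0.008073% in control libraries. In bulk tissue, fewer fibres of a type and less RNA per fibre cannot be told apart.

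**Figure D2:**
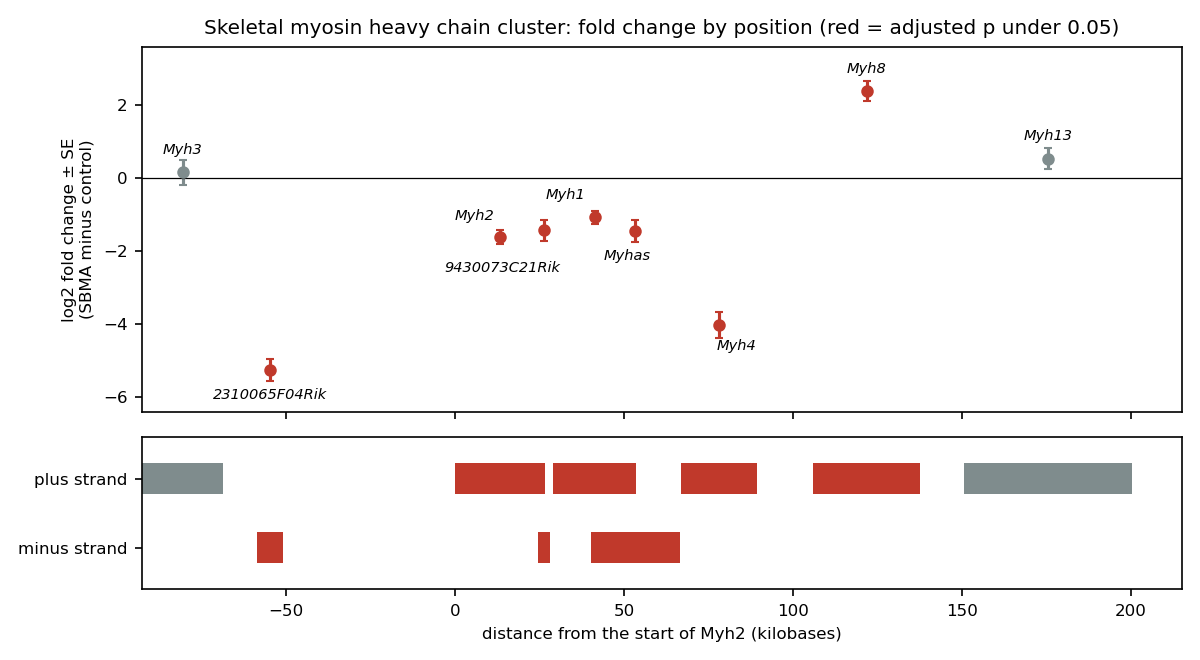
Upper panel, log2 fold change of SBMA minus control with SE for 9 genes of the myosin cluster against their distance from the start of Myh2 in kilobases; lower panel, the span of each gene on its strand, with called genes in red and others in grey. Calls of opposite direction lie side by side: Myh4 at -4.02 and its neighbour Myh8 at 2.39.

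Fast-fibre genes were lower almost without exception. Of 16 tested 15 fell and none rose, with a list median of -0.97 against -0.02 for all genes, and 12 still fell with total-count scaling. Pvalb, the calcium buffer of fast fibres, measured 179, 189, 74.3 and 211 CPM in SBMA libraries, against 1197, 1535, 971 and 1022 CPM in control libraries, with SBMA replicate 3 lowest of all 8 (-2.85 ± 0.27, adjusted p = 6.31e-06). Smaller falls were those of fast troponin genes Tnnt3 (-0.85 ± 0.14) and Tnni2 (-1.06 ± 0.20), of the fast regulatory light chain gene Mylpf (-0.86 ± 0.16) and of Actn3, the Z-disc actinin of fast fibres (-0.78 ± 0.19, adjusted p = 0.0138). Actn3 was not called with total-count scaling. The slow-fibre genes did not move the other way: of 12 tested 5 fell, among them slow troponin Tnni1 (-1.43 ± 0.15, adjusted p = 2.28e-05). Slow Tnnt1 measured 540 to 829 CPM in SBMA and 553 to 1309 CPM in control libraries, which overlapped (-0.32 ± 0.20, adjusted p = 0.320). Only Casq2, the calsequestrin of slow and cardiac muscle, rose among the slow genes, at 658, 617, 734 and 707 CPM in SBMA and 381, 243, 455 and 436 CPM in control libraries (0.84 ± 0.16, adjusted p = 0.00202).

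Of 21 thin-filament genes 12 fell, with a list median of -0.81 (-0.50 without control replicate 2), and 1 rose, or 2 without SBMA replicate 4 and 3 without control replicate 4. Acta1, skeletal actin and the most abundant of them, measured 13985, 12744, 12977 and 13848 CPM in SBMA and 25143, 28767, 22857 and 24301 CPM in control libraries (-0.92 ± 0.12, adjusted p = 8.86e-05). Tropomyosin Tpm2 fell further (-1.24 ± 0.12). The capping proteins of the filament's pointed end diverged. Tmod4, the tropomodulin found in skeletal muscle, measured 135, 133, 134 and 144 CPM in SBMA and 391.9, 442, 353 and 342 CPM in control libraries (-1.48 ± 0.11, adjusted p = 5.26e-07). Tmod1, which caps the same end in heart and skeletal muscle, measured 360, 330, 355 and 330 CPM in SBMA and 194, 188, 212 and 214 CPM in control libraries (0.77 ± 0.09, adjusted p = 3.49e-05). Neither gene's groups overlapped, and both differences kept their sign and call with total-count scaling.

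At the Z disc and among intermediate filaments 7 of 30 genes fell and 4 rose (11 and 5 without control replicate 2), and the list median of -0.14 became -0.05 without control replicate 4 and 0.13 with total-count scaling. Telethonin gene Tcap measured 1635, 1371, 1569 and 1633 CPM in SBMA and 3123, 7429, 3295 and 4353 CPM in control libraries (-1.55 ± 0.25, adjusted p = 0.000651), and calsarcin gene Myoz1 stood at -1.08 ± 0.11. Ankrd1, a stretch- and stress-responsive protein that binds titin, measured 58.04, 12.2, 17.5 and 13.4 CPM in SBMA libraries, against 3.53, 2.43, 2.73 and 2.95 CPM in control libraries (3.11 ± 0.52, adjusted p = 0.000973). SBMA replicate 1 was far above the rest, and without it the fold change was 2.30, still called. The same library led for Mustn1, a small nuclear protein of muscle and bone (338, 116, 81.2 and 129 CPM in SBMA and 35.4, 61.7, 20.8 and 24.6 CPM in control libraries, 2.22 ± 0.44), which stood at 1.61 without it. Mustn1 is also on the list of pericyte and smooth muscle markers, whose sum was 886.8 CPM in SBMA replicate 1, 642.7 to 683.2 CPM in the other SBMA libraries and 633.0 to 814.9 CPM in control libraries, and the part of these cells was not tested.

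Calcium pump and buffer genes of fast fibres fell. Of 19 calcium pumps and buffers tested 5 fell and 1 rose, or 8 and 3 without control replicate 2, and the list median turned from -0.13 to 0.13 with total-count scaling, where 4 fell and 3 rose. The fast pump gene Atp2a1 measured 6336, 7009, 7886 and 7307 CPM in SBMA and 16202, 11855, 16798 and 18976 CPM in control libraries (-1.16 ± 0.14, adjusted p = 4.53e-05). Fast calsequestrin Casq1 (-0.54 ± 0.08) and the histidine-rich calcium-binding protein Hrc (-0.68 ± 0.09) fell by less. In the triad, where the surface membrane meets the reticulum, 4 of 24 genes fell and 2 rose, against 2 and 5 with total-count scaling. Of all genes 5.97% fell and 8.04% rose with TMM scaling. Cacng1, the gamma subunit of the voltage sensor, measured 18.7, 12.3, 11.03 and 13.9 CPM in SBMA and 35.1, 42.4, 27.4 and 32.5 CPM in control libraries (-1.30 ± 0.20, adjusted p = 0.00044). Its pore subunit gene Cacna1s fell too (-0.76 ± 0.17, adjusted p = 0.00842), although control replicate 2 at 821 CPM lay within the SBMA range. The release channel gene Ryr1 had 1655, 2045, 3229 and 2967 CPM in SBMA and 3287, 2114, 4879 and 5291 CPM in control libraries (-0.65 ± 0.25, adjusted p = 0.0985), and was called, at -0.86, without control replicate 2.

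Among 29 channels and pumps of the surface membrane 8 fell and 5 rose, and the list median of -0.17 became -0.11 without control replicate 3, -0.10 without control replicate 4 and 0.08 with total-count scaling. Of the beta subunits, which the sodium-potassium pump needs to reach the membrane, Atp1b1 fell (-1.05 ± 0.14, adjusted p = 0.00013). Atp1b4, a related gene of muscle, rose (1.29 ± 0.32, adjusted p = 0.0133). It measured 18.4, 18.2, 20.1 and 19.2 CPM in SBMA and 8.47, 10.6, 8.77 and 3.18 CPM in control libraries. Whether the product of Atp1b4 serves the pump was not tested, so its rise is not read as an exchange of pump subunits.

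Potassium channel genes changed in both directions. Kcnj3, an inward rectifier gated by G proteins, measured 10.9, 8.89, 20 and 11.3 CPM in SBMA and 2.37, 0.6196, 2.82 and 2.33 CPM in control libraries (2.63 ± 0.40, adjusted p = 0.00044). The leak channel Kcnk3 (2.31 ± 0.28, adjusted p = 6.47e-05) rose with it. Kcnc1, a channel of fast repolarisation, measured 20.9, 27.1, 30.6 and 33.6 CPM in SBMA and 65.02, 67.3, 104 and 176 CPM in control libraries (-1.88 ± 0.33, adjusted p = 0.00127), and Kcna7 stood at -1.12 ± 0.18 (adjusted p = 0.000612). None of these 4 channels, picked from called genes, had overlapping groups. Of the 29 channels and pumps, SBMA libraries lay wholly above control libraries at 5 and wholly below at 7, beside 18.7% without overlap over all genes.

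In these perisynaptic pieces, which hold the neuromuscular junctions among other tissue, subunits of the acetylcholine receptor separated. Chrna1, the alpha subunit that binds the transmitter, measured 122, 114, 92.6 and 93.1 CPM in SBMA libraries, against 50.1, 41.4, 40.9 and 37.8 CPM in control libraries (1.31 ± 0.15, adjusted p = 4.57e-05). Chrnb1, the beta subunit (ENSMUSG00000041189.9, chromosome 11, 69784036 to 69795943), measured 128, 121, 112 and 89.8 CPM in SBMA and 38.2, 45.5, 32.7 and 39.8 CPM in control libraries (1.53 ± 0.14, adjusted p = 5.27e-06). Both sets were far apart, and 2 of 5 subunits were called with every library left out in turn. The delta subunit Chrnd had 37.6, 35.2, 31.1 and 26.1 CPM in SBMA and 31.04, 36.1, 22.9 and 20.2 CPM in control libraries and overlapped (0.24 ± 0.18, adjusted p = 0.403). The adult epsilon subunit Chrne had 20.8, 23.1, 16.6 and 17.5 CPM in SBMA and 25.5, 36.4, 19.4 and 18.4 CPM in control libraries, with control replicate 2 highest (-0.35 ± 0.19, adjusted p = 0.238).

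Of 13 genes of agrin, MuSK and receptor clustering 2 fell and none rose, or 3 fell and 3 rose with the run as a block, and 3 fell without control replicate 2. The falls were Pdzrn3, a ubiquitin ligase that binds MuSK (-0.71 ± 0.20, adjusted p = 0.0281), and the focal adhesion protein Tns2 (-0.34 ± 0.09, adjusted p = 0.0249). Pdzrn3 was not called without SBMA replicate 1, 2 or 3 or control replicate 3 or 4, and Tns2 not without SBMA replicate 1 or 3. Neither was called with total-count scaling. Colq, the collagen tail that anchors acetylcholinesterase in the cleft, measured 73.8, 73.6, 57.5 and 63.2 CPM in SBMA and 38.4, 37.95, 30.2 and 26.7 CPM in control libraries, without overlap (1.01 ± 0.12, adjusted p = 7.43e-05). Acetylcholinesterase itself, Ache, stood at 0.34 ± 0.19 (adjusted p = 0.257) with overlapping groups. The receptor-clustering scaffold Rapsn was not called (0.28 ± 0.10, adjusted p = 0.0773), although its SBMA libraries, 42 to 50.2 CPM, all lay above control libraries, 35.8 to 41.1 CPM, and it was called without control replicate 2. Agrin's receptor Lrp4 (0.41 ± 0.15, adjusted p = 0.0905) was called without SBMA replicate 1 or without control replicate 3, and its signalling partner Musk (0.90 ± 0.31, adjusted p = 0.0668) without control replicate 4. With the run as a block Rapsn, Lrp4 and Musk were called. Of 9 ErbB receptors and ETS factors tested 2 rose and none fell. They were Erbb3, a neuregulin receptor subunit (0.51 ± 0.14, adjusted p = 0.0256), and the ETS factor Etv4 (0.91 ± 0.26, adjusted p = 0.0281). Erbb3 was not called without SBMA replicate 3 or 4 or control replicate 1 or 3, and Etv4 not without SBMA replicate 1 or 2 or control replicate 3 or 4. Etv5, the ETS factor of synaptic nuclei, was not called (28.1 to 31.7 CPM in SBMA and 26.7 to 31.6 CPM in control libraries, 0.04 ± 0.11, adjusted p = 0.835).

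Whether the perisynaptic difference departs from that in extrasynaptic pieces of the same animals was tested for 16138 genes, of which 2 were called, or 0.0124%, while 490 had an unadjusted p under 0.05 and DESeq2 called 5. One was Chrna1, with 70.5, 62.7, 60.2 and 56.3 CPM in SBMA and 12.7, 9.11, 15.4 and 13.6 CPM in control extrasynaptic libraries, each region being scaled on its own. The difference between the genotypes was thus 2.30 ± 0.17 extrasynaptically, and the perisynaptic one was smaller by a log2 interaction of -1.01 ± 0.15 (adjusted p = 0.0212). This call was lost without any of the SBMA replicates or control replicate 1 (adjusted p = 0.0513 to 0.266), with the log2 interaction between -0.88 and -1.12 over the 8 leave-outs. The other was Igkv14-126, an immunoglobulin light-chain segment (adjusted p = 0.0212), lost without SBMA replicate 3 or without control replicate 1, 3 or 4. Chrnb1 rose by 1.86 ± 0.13 and Colq by 1.73 ± 0.20 extrasynaptically, and neither departed between regions past the threshold (adjusted p = 1.00 for Chrnb1, adjusted p = 0.684 for Colq).

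**Figure D3:**
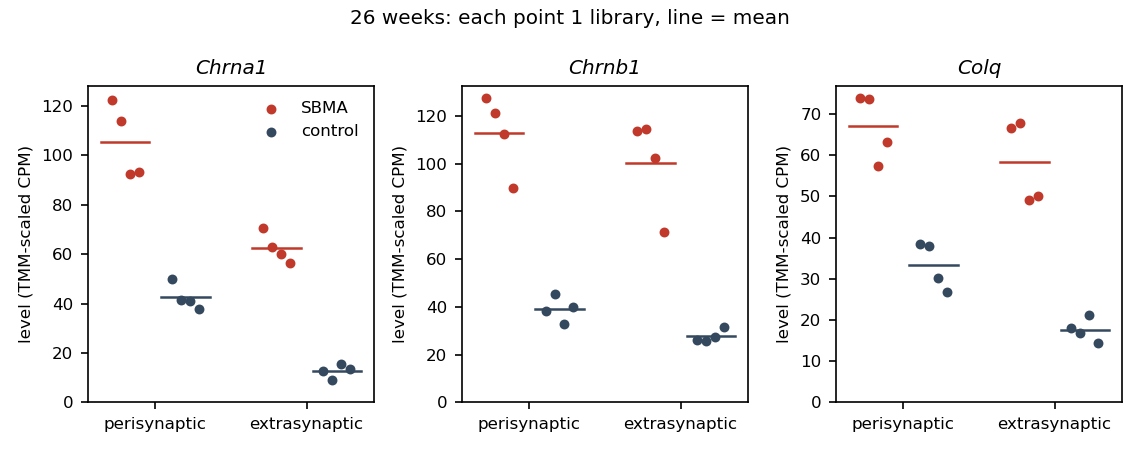
Level of Chrna1, Chrnb1 and Colq at 26 weeks in TMM-scaled CPM, each region scaled on its own, with SBMA left of control in perisynaptic and then extrasynaptic libraries, a point for each library and a line at the mean. Control libraries lie far lower in extrasynaptic than in perisynaptic pieces for Chrna1 (9.11 to 15.4 against 37.8 to 50.1 CPM), and SBMA libraries are above control libraries in every panel.

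Genes of the denervation response were called higher in 6 of 21 cases and lower in none. Called or not, 13 of the 21 fold changes were above 0 and 8 below 0. The list median was 0.46 (0.19 without SBMA replicate 1). Without control replicate 2, 8 were called higher and 3 lower. The list holds Chrna1, Myh8 and Ankrd1 from above, and Ncam1, a cell-adhesion gene that spreads along fibres that lose their nerve, with 46.2, 45.7, 33.1 and 29.7 CPM in SBMA and 14.5, 13.9, 16.7 and 15.3 CPM in control libraries (1.35 ± 0.21, adjusted p = 0.000435). Of 27 motor axon and neuronal genes only 14 passed the filter on low counts, and Chat, Slc18a3, Prph and Nefl, which define motor axons, were not among them. A gene can have passed that filter through its SBMA libraries alone, so the 4 rises and 1 fall among the 14 are given as values, the fall being lost without SBMA replicate 1, 2 or 4 or control replicate 3 or 4. Nrcam, an adhesion molecule of axons, measured 16.7, 10.4, 11.03 and 10.9 CPM in SBMA and 2.17, 2.38, 1.53 and 1.43 CPM in control libraries (2.71 ± 0.23, adjusted p = 2.8e-06). Uchl1, a deubiquitinase abundant in neurons, measured 19.8, 17.3, 11 and 7.07 CPM in SBMA and 3.57, 2.69, 1.77 and 1.92 CPM in control libraries (2.47 ± 0.34, adjusted p = 0.000182). Active-zone protein Erc2 (2.33 ± 0.29) and axonal motor Kif1a (1.42 ± 0.25) were the other rises, and the fall was Sv2c, a synaptic vesicle protein (-1.65 ± 0.46, adjusted p = 0.0264). In extrasynaptic pieces at 26 weeks the differences were 3.77 (Nrcam), 1.57 (Uchl1), 2.47 (Erc2), 3.59 (Kif1a) and -1.61 (Sv2c). These changes were thus not particular to pieces with junctions, and none departed between regions past the threshold.

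2 transcripts with roles in vesicles of other cells were among the 15 largest rises. Slc18a1, a vesicular monoamine transporter, measured 7.22, 6.25, 6.11 and 4.47 CPM in SBMA and 1.17, 1.24, 1.05 and 0.716 CPM in control libraries (2.53 ± 0.25, adjusted p = 8.61e-06). Rab15, a GTPase of endosomes, measured 10.9, 9.24, 19.1 and 16.2 CPM in SBMA and 2.81, 1.86, 2.65 and 2.19 CPM in control libraries (2.53 ± 0.30, adjusted p = 4.79e-05). Summed Schwann cell markers overlapped, at 194.4 to 269.2 CPM in SBMA and 151.6 to 347.4 CPM in control libraries, and 1 of 15 was called, which was lost without any of 6 libraries. Their part in these rises was not tested.

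Of 17 myogenic and satellite cell genes tested 8 rose and none fell. That count was 3 without SBMA replicate 1 or without control replicate 4, 4 without SBMA replicate 2 or 3 or control replicate 1, and 0 within the run of replicates 3 and 4. Myf5, a determination factor of muscle stem cells, measured 4.77, 3.92, 4.52 and 3.57 CPM in SBMA and 2.53, 1.91, 2.53 and 2.51 CPM in control libraries (0.82 ± 0.17, adjusted p = 0.00371). Myod1, its close relative, measured 10.1 to 14.2 CPM in SBMA and 12.4 to 18.5 CPM in control libraries, with overlap (-0.31 ± 0.18, adjusted p = 0.289).

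The steepest rises came from genes that control diaphragm hardly expresses, several of them on the X chromosome. Such a gene can have passed the filter on low counts through its SBMA libraries alone. The size of its fold change rests on few control counts, so these rises are given as values. Prr32, a proline-rich protein gene, measured 6.72, 6.79, 10.6 and 7.64 CPM in SBMA and 0.281, 0.155, 0.241 and 0.179 CPM in control libraries (5.15 ± 0.33, adjusted p = 2.05e-07). Igsf1, a membrane glycoprotein of the immunoglobulin superfamily, measured 32.9, 24.96, 36.6 and 40.03 CPM in SBMA and 2.73, 1.65, 2.57 and 3.13 CPM in control libraries (3.73 ± 0.18, adjusted p = 2.63e-08). Of the Tceal and Bex family, small X-linked proteins related to a transcription elongation factor, 8 of 12 passed the filter, and 5 rose and none fell. Like the other lists, it was chosen with earlier results of these data known, so its count lends no support. Tceal7 measured 32, 27.2, 28.9 and 23.2 CPM in SBMA and 3.77, 3.82, 5.91 and 5.86 CPM in control libraries (2.52 ± 0.20), Tceal5 stood at 2.44 ± 0.19 and Bex1 at 2.27 ± 0.21. The X-linked melanoma-antigen family genes Maged1 (0.81 ± 0.08) and Maged2 (1.49 ± 0.11) rose by less, at higher levels. Over the whole X chromosome 66 of 495 genes tested were called higher, or 13.3%, and 14 lower, or 2.83%. On the autosomes the shares called higher ran between 6.0% on chromosome 16 and 9.79% on chromosome 11.

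Other steep rises lay on autosomes. Krt80, a keratin, measured 82.9, 71.98, 49.8 and 39.4 CPM in SBMA and 6.59, 4.54, 8.17 and 11.8 CPM in control libraries (2.97 ± 0.31, adjusted p = 1.74e-05). A930003A15Rik, annotated as a long intergenic non-coding RNA, measured 6.97, 5.67, 5.59 and 4.404 CPM in SBMA and 0.522, 0.361, 0.563 and 0.492 CPM in control libraries (3.52 ± 0.21). Hectd2os, annotated antisense to Hectd2, stood at 2.91 ± 0.18, with the same doubt about strand as above. AW551984, a protein-coding gene of unstated function, measured 18.7, 17.8, 19.7 and 22.9 CPM in SBMA and 4.14, 3.56, 4.02 and 4.47 CPM in control libraries, and its small spread made it one of the firmest calls (2.28 ± 0.13, adjusted p = 9.07e-08).

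Imprinted genes, active from the copy of a single parent, form a list that was drawn up after values had been seen and supports nothing by its count, 6 higher and 1 lower of 41 (2 lower without control replicate 2). Peg3, a paternally expressed zinc-finger gene, measured 172, 143, 171 and 160 CPM in SBMA and 38.03, 33.4, 33.1 and 31.6 CPM in control libraries (2.25 ± 0.19, adjusted p = 2.09e-06). Its neighbour Usp29 was higher at far lower levels (2.62 ± 0.38, adjusted p = 0.000301), at 1.126 to 1.635 CPM in SBMA and 0.1342 to 0.3213 CPM in control libraries. Usp29 can have passed the filter on low counts through its SBMA libraries alone, so its rise is given as a value. H19, a maternally expressed non-coding RNA abundant in muscle, fell, with 686, 555, 878 and 1231 CPM in SBMA and 2284, 2492, 2092 and 2383 CPM in control libraries (-1.47 ± 0.21, adjusted p = 0.000269).

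**Figure D4:**
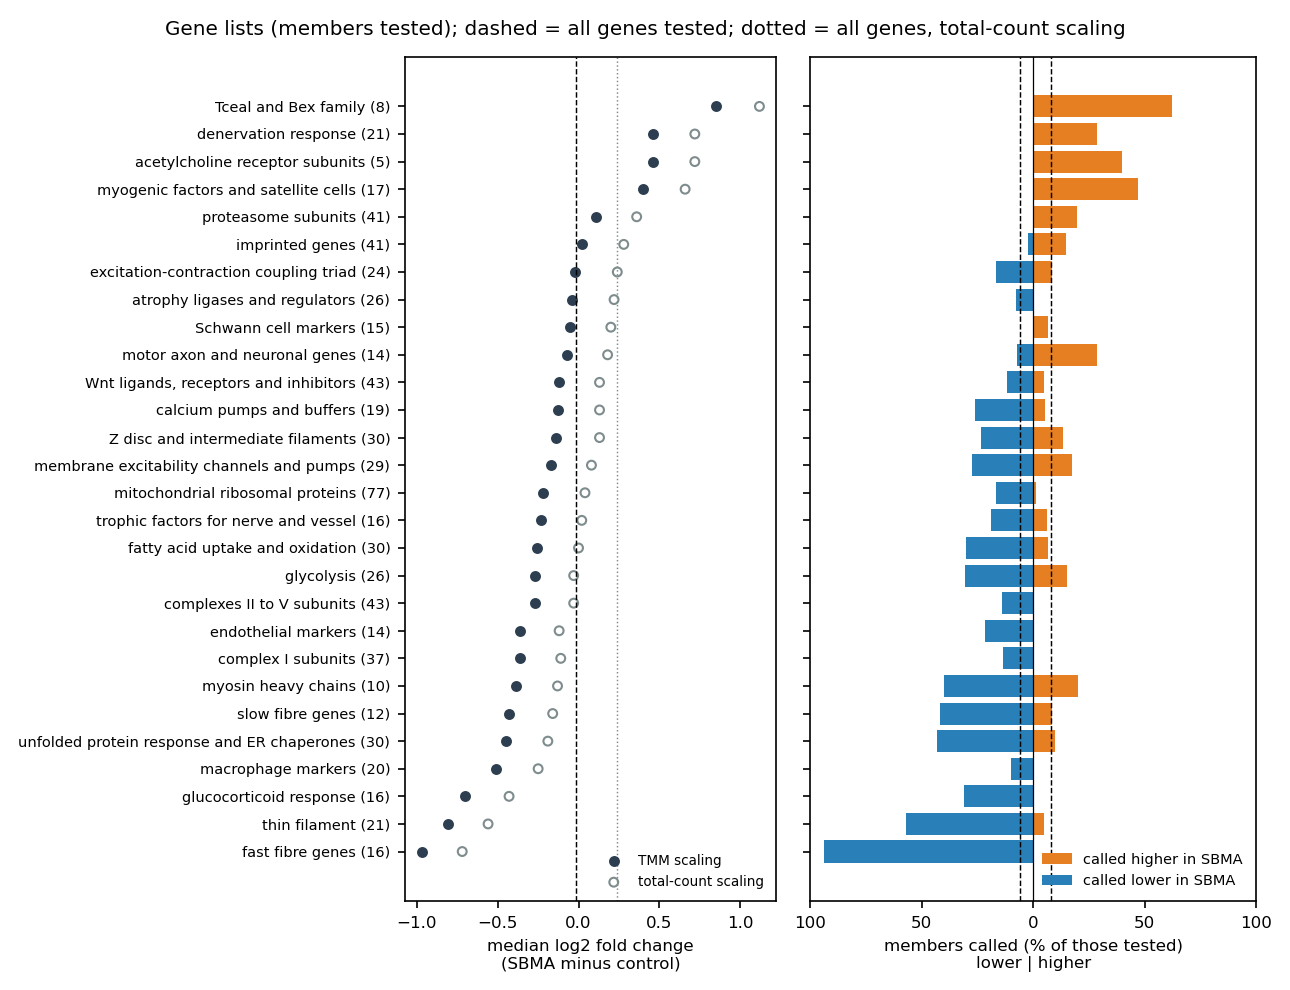
Left, median log2 fold change of 28 gene lists with TMM scaling (filled) and with total-count scaling (open), against the medians of all genes at -0.02 (dashed) and 0.24 (dotted); right, percent of the members tested that were called lower or higher, with dashed lines at 5.97% and 8.04% for all genes. The number in brackets is the members tested. Lists were chosen with earlier results of these data known. Fast-fibre and thin-filament genes lie at the bottom and the Tceal and Bex family at the top, under both scalings.

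Mb, the oxygen store myoglobin, measured 2720, 2808, 2326 and 2966 CPM in SBMA and 12331, 16584, 11527 and 12343 CPM in control libraries, with control replicate 2 above the rest (-2.29 ± 0.16, adjusted p = 3.7e-07). Of 17 genes of NAD synthesis and use 1 fell, beside 5.97% of all genes, and none rose (3 fell and 1 rose without control replicate 2). The fall was Nmrk2, a muscle kinase that acts on nicotinamide riboside, which measured 11.2, 7.804, 7.11 and 13.7 CPM in SBMA and 141, 254, 117 and 158 CPM in control libraries (-4.07 ± 0.32, adjusted p = 1.17e-06). Car3, a carbonic anhydrase of slow fibres, measured 54.8, 47.7, 72.2 and 64.9 CPM in SBMA and 486, 351, 505 and 352 CPM in control libraries (-2.82 ± 0.32, adjusted p = 3.76e-05). Of 30 genes of fatty acid uptake and oxidation 9 fell and 2 rose, 5 to 7 falling without any 1 library other than control replicate 2 and 13 without that one, and 3 fell and 4 rose with total-count scaling. Lpl, which frees fatty acids from lipoproteins, led them, at 1559, 1419, 1840 and 1876 CPM in SBMA and 4427, 3987, 5007 and 5261 CPM in control libraries (-1.48 ± 0.14, adjusted p = 6.31e-06), followed by the carrier Fabp3 (-0.998 ± 0.15).

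In glycolysis 8 of 26 genes fell and 4 rose, or 4 and 7 with total-count scaling. The falls were 5 without SBMA replicate 2, 3 or 4. The rises were 1 without control replicate 1 or 3, 2 without SBMA replicate 1 or 2 or control replicate 4, and 6 without control replicate 2. Hk2, the insulin-responsive hexokinase, fell too (-1.14 ± 0.19). The creatine kinases moved in opposite directions, with the muscle form Ckm at 8351, 8535, 7571 and 7092 CPM in SBMA and 14473, 16767, 11256 and 12016 CPM in control libraries (-0.79 ± 0.13, adjusted p = 0.00115) and the brain form Ckb at 27.2, 22.5, 21.7 and 19.7 CPM in SBMA and 12.4, 17.4, 8.81 and 8.63 CPM in control libraries (0.95 ± 0.20, adjusted p = 0.00483). Around glycogen, the targeting subunits of its phosphatase Ppp1r3b (-1.55 ± 0.32) and Ppp1r3c (-1.04 ± 0.25) fell. Stbd1, which binds glycogen and leads it to lysosomes, measured 70.6, 65.8, 71.6 and 67.02 CPM in SBMA and 21.2, 18.9, 21.6 and 25.9 CPM in control libraries (1.65 ± 0.12, adjusted p = 4.72e-07).

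Nuclear genes of the respiratory chain had small negative fold changes, of which few were called. Of 37 complex I subunits all 37 were below 0 and 5 were called, with a median of -0.36 (-0.14 without control replicate 2). With the run as a block 16 were called, but 2 were called without SBMA replicate 1, 3 or 4, 3 without SBMA replicate 2, 8 without control replicate 3 or 4, and 0 with total-count scaling, where the median was -0.11. Of 43 subunits of complexes II to V 6 fell, 2 when any SBMA replicate or control replicate 1 was left out, and with total-count scaling 1 fell and 1 rose. Uqcrc1, a core subunit of complex III, measured 864, 853, 807 and 820 CPM in SBMA and 1283, 1616, 1244 and 1216 CPM in control libraries (-0.68 ± 0.12, adjusted p = 0.00109). Mitochondrial ribosomal proteins fell in 13 of 77 cases with 1 rise (7 falls without SBMA replicate 3, 8 without SBMA replicate 4 or control replicate 1, and the rise lost without any library but control replicate 2), whereas total-count scaling gave 0 falls and 2 rises. Ppargc1a, the coactivator that drives mitochondrial genes, had 190, 181, 183 and 222 CPM in SBMA and 318, 79.99, 698 and 781 CPM in control libraries (-1.28 ± 0.55, adjusted p = 0.142). Control replicate 2 was the lowest of all 8 there, and the gene was called, at -1.63, without it.

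Transcripts of trophic factors for nerve and vessel were changed at named members. Which cells of the pieces made them was not tested. Of 16 trophic factors tested 3 fell and 1 rose, beside 5.97% and 8.04% of all genes. The list median of -0.23 became -0.13 without SBMA replicate 3 and 0.02 with total-count scaling. The motor neuron survival factor Gdnf measured 0.795, 0.505, 0.481 and 0.434 CPM in SBMA and 2.37, 1.81, 1.01 and 1.75 CPM in control libraries (-1.64 ± 0.33, adjusted p = 0.00345). Neurotrophin gene Ntf5 (-0.85 ± 0.18) and the vessel growth factor Vegfa (330, 287, 273 and 277 CPM in SBMA and 514, 576, 415 and 463 CPM in control libraries, -0.75 ± 0.17) were the other falls, and Ctf1, a cytokine that supports motor neurons, rose (0.50 ± 0.11, adjusted p = 0.00673). Without control replicate 3 the rises were 2, and within the run of replicates 3 and 4 there was 1 fall and no rise.

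In Wnt signalling, a list also drawn up after values had been seen, the R-spondin receptor Lgr6 measured 0.469, 0.543, 1.41 and 1.43 CPM in SBMA and 11.3, 6.76, 10.5 and 8.68 CPM in control libraries (-3.26 ± 0.30, adjusted p = 5.27e-06). Dkk2, a secreted inhibitor of the Wnt co-receptors, measured 0.506, 1.48, 0.778 and 1.001 CPM in SBMA and 7.95, 30.6, 10.5 and 7.52 CPM in control libraries (-3.90 ± 0.48, adjusted p = 7.1e-05), and stood at -3.21 without control replicate 2. The ligands Wnt16 (-2.29 ± 0.25, adjusted p = 2.33e-05) and Wnt4 (-1.41 ± 0.15, adjusted p = 2.35e-05) fell. Wls, which carries Wnt proteins to the surface, rose (87.6, 84.2, 105 and 98.2 CPM in SBMA and 61.8, 43.1, 59.3 and 51.5 CPM in control libraries, 0.80 ± 0.12, adjusted p = 0.000308). In all 5 of 43 fell and 2 rose (1 rose without SBMA replicate 3 or control replicate 1 or 4), and the median of -0.12 became -0.07 without control replicate 1, -0.19 without SBMA replicate 2 and 0.13 with total-count scaling.

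Genes of protein folding in the endoplasmic reticulum fell in 13 of 30 cases and rose in 3, with a median of -0.45. With total-count scaling 6 fell, and the falls numbered 2 within the run of replicates 1 and 2 and 16 within the run of replicates 3 and 4. Hspa5, the main chaperone there, measured 279, 334, 297 and 303 CPM in SBMA and 410, 317, 710 and 837 CPM in control libraries, with overlap (-0.91 ± 0.23, adjusted p = 0.0172), and missed the threshold without control replicate 3 or 4 (adjusted p = 0.051 and 0.0537). Sdf2l1, a partner of that chaperone, measured 4.91, 5.98, 6.59 and 5.91 CPM in SBMA and 11.5, 10.4, 18.2 and 17.9 CPM in control libraries, without overlap (-1.31 ± 0.18, adjusted p = 0.000216). The secreted factor Manf (-1.25 ± 0.23) and the transcription factor Xbp1 (-0.52 ± 0.11, adjusted p = 0.00422) fell, Xbp1 not being called with total-count scaling. Rises were those of the sensor Atf6 (0.82 ± 0.19, adjusted p = 0.0103), the phosphatase subunit Ppp1r15a (0.99 ± 0.18, adjusted p = 0.00193) and the stress factor Atf3 (150, 27.9, 14.2 and 17.3 CPM in SBMA and 11.8, 16.1, 11.3 and 10.2 CPM in control libraries, 2.08 ± 0.59, adjusted p = 0.0283). Atf3 rested on SBMA replicate 1: without it the fold change was 0.68 (adjusted p = 0.136), and the call was also lost without control replicate 1, 3 or 4 (adjusted p = 0.0633 to 0.0687).

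Proteasome subunits rose in 8 of 41 cases and fell in none, with a median of 0.11, or between 0.06 (without SBMA replicate 1 or control replicate 1) and 0.19 (without control replicate 2), and 0.07 without control replicate 3. The count was 4 without SBMA replicate 1, 5 without control replicate 1 or 3, 12 without control replicate 2, 1 in the fit of the 8 libraries alone and 0 within the run of replicates 3 and 4. Psmd1, a scaffold of the regulatory particle, measured 181, 179, 196 and 188 CPM in SBMA and 133, 109, 143 and 161 CPM in control libraries (0.45 ± 0.11, adjusted p = 0.0107). Vcp, the segregase that feeds the proteasome and is mutated in an inherited myopathy, measured 162, 156, 160 and 144 CPM in SBMA and 98.7, 102, 99.2 and 118 CPM in control libraries (0.57 ± 0.09, adjusted p = 0.00041).

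The ubiquitin ligases that mark muscle atrophy were not called. Fbxo32 measured 346, 344, 518 and 460 CPM in SBMA and 497, 353, 435 and 705 CPM in control libraries (-0.25 ± 0.19, adjusted p = 0.394), and turned to 0.01 with total-count scaling. Trim63 measured 301, 216, 252 and 333 CPM in SBMA and 444, 262, 320 and 731 CPM in control libraries (-0.67 ± 0.26, adjusted p = 0.104), and was called without control replicate 2. The growth inhibitor gene Mstn overlapped as well (-0.56 ± 0.38, adjusted p = 0.358). Of 26 atrophy ligases and regulators 2 fell and none rose, beside 5.97% and 8.04% of all genes. The counts were 6 and 0 without control replicate 2, and 1 and 7 with total-count scaling. They were 1 and 0 without SBMA replicate 1, 2 or 3 or control replicate 3 or 4.

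All 16 glucocorticoid-responsive genes were below 0, with a median of -0.70, and 5 were called. The count was 3 without SBMA replicate 1 or 2 or control replicate 4, and 9 without SBMA replicate 4. Sgk1, a kinase induced by the hormone, measured 45.9, 43.02, 58.3 and 91.6 CPM in SBMA and 149, 160, 194 and 234 CPM in control libraries, with SBMA replicate 4 nearest to the controls (-1.62 ± 0.23, adjusted p = 0.000213). Cebpb, a transcription factor of the same response, measured 83.04, 56.2, 86.2 and 96.1 CPM in SBMA and 187, 155, 190 and 229 CPM in control libraries (-1.24 ± 0.16, adjusted p = 0.00013). Of polyamine genes, Sms, spermine synthase, rose (20.8, 18.2, 21.2 and 20.9 CPM in SBMA and 12.6, 9.66, 16.8 and 13.9 CPM in control libraries, 0.61 ± 0.13, adjusted p = 0.00617), and so did Oaz2, an antizyme that restrains the pathway (0.55 ± 0.09, adjusted p = 0.0005).

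Summed skeletal muscle markers stood at 48762 to 63239 CPM in SBMA and 82975 to 110297 CPM in control libraries, without overlap. The sum includes Acta1, Ckm, Myh1, Myh2, Myh4 and Myh7, reported above as lower, so it largely restates those falls. The amount of muscle in the pieces was not tested. Skeletal muscle markers do not tell the regions apart. The junction gene Chrne measured 16.6 to 23.1 CPM in SBMA and 18.4 to 36.4 CPM in control perisynaptic libraries. In extrasynaptic libraries, scaled on their own, it measured 0.0321 to 1.696 CPM in SBMA and 0.3296 to 0.7269 CPM in control. Macrophage markers summed to 357.0 to 503.1 CPM in SBMA and 464.1 to 620.6 CPM in control libraries. Of 20 tested 2 were lower, beside 5.97% of all genes. None was lower without SBMA replicate 3 or 4. The count was 1 without control replicate 1 or 3, 5 without control replicate 2 and 4 without control replicate 4. Endothelial markers summed to 872.2 to 921.2 CPM in SBMA and 957.4 to 1566 CPM in control libraries, without overlap (exact permutation test, 2-sided, p = 0.02857, the smallest possible), and 3 of 14 were lower, 1 without SBMA replicate 1, 2 or 4 or control replicate 2. Esam, a junction protein of vessels, measured 26.2, 25.04, 24.99 and 30.3 CPM in SBMA and 35.4, 58.1, 36.97 and 39.5 CPM in control libraries (-0.67 ± 0.15, adjusted p = 0.00657). Vegfa and Lpl, which vessels respond to or carry, moved the same way as these markers, and the markers' part in them was not tested. With total-count scaling no macrophage or endothelial marker was called. Sums for adipocytes, pericytes, fibroadipogenic progenitors, mesothelium, tendon and blood overlapped between the groups.

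At 15 weeks a comparison of 4 SBMA and 3 control perisynaptic libraries gave the values below. Unlike at 26 weeks, the runs of library numbers were not balanced between the genotypes there. SBMA replicates 1 to 3 shared a run with control replicate 1, and SBMA replicate 4 shared the other with control replicates 2 and 3. The part of the run in the values at 15 weeks and in the interactions with age was not tested. The test of whether the SBMA difference itself changed with age called 59 of 15735 genes, 0.375%, with 38 more positive and 21 more negative at 26 weeks. That count was 121 without control replicate 2, 36 without SBMA replicate 2, 39 without SBMA replicate 1 and 148 with total-count scaling, and 34 genes were called whichever library was left out. AW551984 gave the smallest adjusted p, at 6.07, 6.04, 6.82 and 4.84 CPM in SBMA and 4.62, 4.42 and 3.92 CPM in control libraries at 15 weeks (0.45 ± 0.14), and its interaction was 1.83 ± 0.19 (adjusted p = 0.000882). Nmrk2 had an interaction of -3.27 ± 0.43 (adjusted p = 0.00484), with -0.80 ± 0.30 at 15 weeks. 2310065F04Rik (-3.08 ± 0.39, adjusted p = 0.00484) and Myh4 (-2.78 ± 0.47, adjusted p = 0.0169) had interactions of the same sign; Myh4 was not called at 15 weeks (-1.24 ± 0.33, adjusted p = 0.238). Krt80 (2.19 ± 0.45, adjusted p = 0.0478) and Nrcam (2.06 ± 0.34, adjusted p = 0.0164) were not called at 15 weeks, at 0.78 ± 0.34 and 0.65 ± 0.26.

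The tropomodulins were tested for age in the same way. Tmod4 had 304, 305, 244 and 268 CPM in SBMA and 356, 363 and 398 CPM in control libraries at 15 weeks, and its interaction was -1.07 ± 0.15 (adjusted p = 0.0107). Tmod1 was not called at 15 weeks (0.08 ± 0.09), with an interaction of 0.69 ± 0.13 (adjusted p = 0.0259). Chrnb1 passed (1.22 ± 0.20, adjusted p = 0.0164) while Chrna1, not overlapping at 15 weeks (57.2 to 94.7 CPM in SBMA and 48.4 to 54.3 CPM in control libraries, adjusted p = 0.526), did not (0.87 ± 0.22, adjusted p = 0.142). Adig, an adipocyte-linked gene (-2.14 ± 0.37, adjusted p = 0.0169), and Gnmt, a methyltransferase of glycine (-2.12 ± 0.43, adjusted p = 0.0468), were further negative interactions. Igfbp2, a binding protein of insulin-like growth factors, had 4.12, 2.87, 1.81 and 1.501 CPM in SBMA and 14.8, 20.6, 9.37 and 11.1 CPM in control libraries at 26 weeks (-2.44 ± 0.30) and 5.45 to 7.703 CPM in SBMA and 13.6 to 21.04 CPM in control libraries at 15 weeks (-1.48 ± 0.30, adjusted p = 0.0592).

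**Figure D5:**
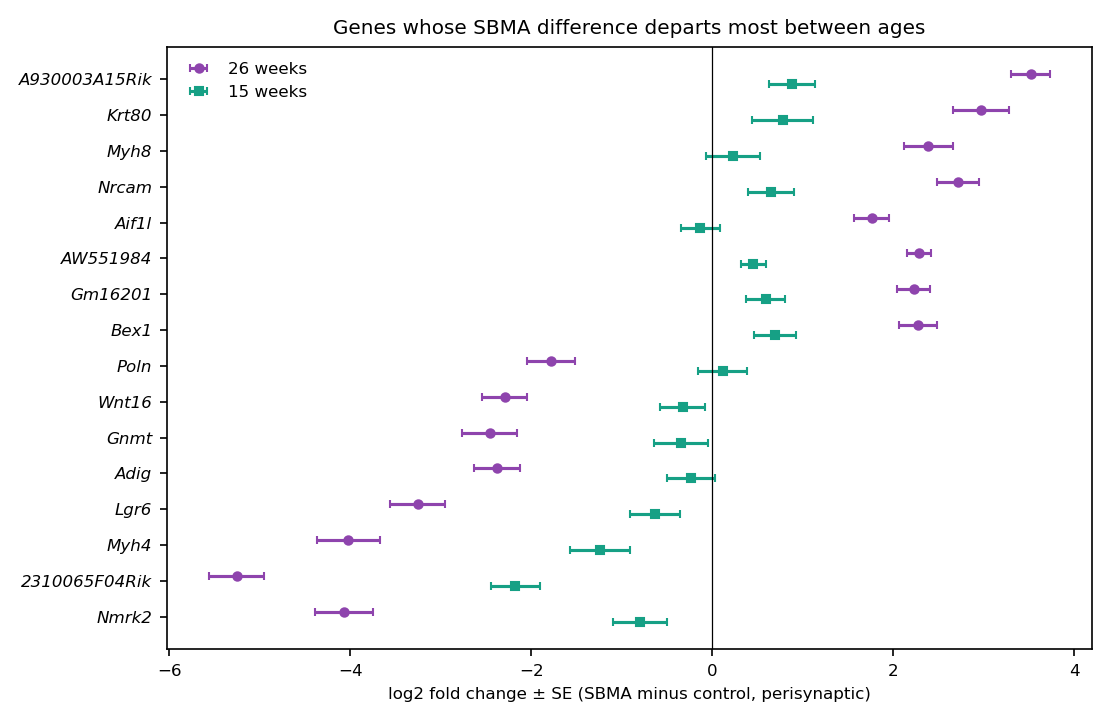
Log2 fold change of SBMA minus control with SE in perisynaptic libraries at 26 weeks (circles) and 15 weeks (squares), for the 8 called genes above 2 CPM with the most positive and the 8 with the most negative genotype-by-age interaction. Every gene shown lies further from 0 at 26 weeks, with Nmrk2 at -4.07 against -0.80.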

How the data were processed

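Library preparation used miRNeasy extraction and the KAPA stranded mRNA kit, per the labels' protocols. The deposited files hold raw counts, made by the authors with featureCounts on mm10, per the submitters' processing notes; the sources used here do not give aligner, annotation or strand setting. Of 33076 genes 33064 matched GENCODE vM21. Genes passing filterByExpr (minimum count 10, total 15) were scaled by TMM and tested with edgeR 4.0.16 (R 4.3.3, limma 3.58.1) over the 15 perisynaptic libraries; the test by region used 30 libraries with a term for each animal. Alternatives included DESeq2 1.42.0, other scalings, filters, blocks and left-out libraries. Groups follow the labels, and replicates are separate animals. The fit was tested on simulated data.

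Members and lists were chosen with earlier results of these data known. Named genes are a selection from the 15 largest called rises and falls above 2 CPM, up to 5 members of each list with the smallest p, the 8 largest called interactions each way and a fixed set. Myhas, 9430073C21Rik, Tnnt3, Tnni2, Actn3, Tnnt1, Atp1b4, Kcnc1, Kcnk3, Mb, Maged1, Maged2, Hspa5, Xbp1 and Atf6 were chosen after their values were seen. The imprinted and Wnt lists were added after values were seen and support nothing. Some genes are not reported here.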

Additional observations from a re-analysis of the deposited data

Results flagged for a closer look

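Single libraries lay apart from the other 3 of their group, by a gap large against the range, in 14 of 282 groups of values examined (4.965%), where chance gives about 1 in 20. Control replicate 2 was the one most often. It was highest for Myhas (83.19 CPM, the other control libraries 26.23 to 29.12), Mb (16584 CPM, others 11527 to 12343), Uqcrc1 (1616 CPM, others 1216 to 1283), Dkk2 (30.57 CPM, others 7.517 to 10.54) and Tns2 (150.4 CPM, others 125.1 to 126.9). It was lowest for Myf5 (1.911 CPM). Its summed endothelial markers also stood at 1566 CPM, with 957.4 to 1060 CPM in the other control libraries. Control replicate 4 was lowest for Maged2, at 17.09 CPM.

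SBMA replicate 1 was highest for Ankrd1 (58.04 CPM, the other SBMA libraries 12.23 to 17.48), Atf3 (149.6 CPM, others 14.15 to 27.88) and Nrcam (16.69 CPM, others 10.4 to 11.03), and its summed pericyte and smooth muscle markers stood at 886.8 CPM. SBMA replicate 2 was lowest for Sms, at 18.17 CPM, and SBMA replicate 3 had the lowest share of counts in Mb, 0.2447%.

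The difference between SBMA and control libraries departed between perisynaptic and extrasynaptic pieces at Chrna1, with an interaction of -1.007 on the log2 scale. It departed between 26 and 15 weeks at 24 named genes, by the test of the interaction itself. Runs were not balanced between the genotypes at 15 weeks, and their part in these interactions was not tested. Sarcomere and fuel genes had interactions of -2.78 (Myh4), 2.157 (Myh8), -1.288 (Tnni1), -1.071 (Tmod4), 0.687 (Tmod1), -1.644 (Mb), -3.273 (Nmrk2) and 0.9036 (Stbd1). The interaction was -3.079 for the non-coding 2310065F04Rik and 1.216 for the receptor subunit Chrnb1. X-linked genes stood at 1.517 (Igsf1), 1.582 (Bex1), 0.6769 (Maged1) and 1.045 (Maged2). Autosomal genes that were higher in SBMA libraries stood at 2.064 (Nrcam), 2.191 (Krt80), 1.532 (Hectd2os), 2.632 (A930003A15Rik), 1.831 (AW551984) and 1.502 (Peg3). Those that were lower stood at -2.623 (Lgr6), -1.967 (Wnt16), -2.142 (Adig) and -2.115 (Gnmt).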

How the results depend on the processing

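For the difference between SBMA and control libraries, 4642 genes were called with total counts alone, 1302 in a fit of only these 8 libraries, 1381 within the run of replicates 1 and 2, and 990 within the run of replicates 3 and 4. With the run as a block 3222 were called (1794 higher, 1428 lower), including all 2204. Leaving out 1 library gave 1602 to 2706. For genotype by age DESeq2 called 190, total counts 148 and leave-outs 36 to 121. For genotype by region DESeq2 called 5, total counts 1, no filter 65 and leave-outs 0 to 3. Same-numbered SBMA and control libraries did not deviate together in every pair (correlations -0.258 to 0.569 over 7 pairs, and 2 of 4 SBMA libraries at 26 weeks correlated best with their own number), so they were not treated as pairs. At 26 weeks SBMA replicates 1 and 2 correlated with control replicate 2, and SBMA replicates 3 and 4 with control replicates 3 and 4, at 0.463 to 0.571, while correlations across these sets were -0.572 to -0.42; control replicate 1 stood at -0.117 to 0.066 with all 4. With the replicate block 2317 genes were called for genotype, 1889 of them shared, and 18 for genotype by age. Signs turned for Etv5 within the run of replicates 1 and 2 (-0.1015), for Myh3 within the run of replicates 3 and 4 (-0.7067) and with a library left out (-0.1506 to 0.4379), and for Fbxo32 with total counts (0.005161). The cause was not tested. With 4 animals in each group, a difference that missed the threshold is not shown to be absent. Among named genes Atf3 (0.59), Ppargc1a (0.55) and Ankrd1 (0.52) had the widest SE, at mean levels of 32.3, 331.7 and 14.1 CPM.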
